A study of Mus musculus with 4 samples.

Results

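Pre-granulosa cells of the E14.5 mouse ovary were described from 1 single-cell library, with the question of how the cells that carried RNA of the receptor gene Lgr5 differed from those that did not. A cell was taken as pre-granulosa when at most 1 of 6 germ cell genes (Dazl, Ddx4, Dnd1, Mael, Dppa5a, Mov10l1) was above 0 and at least 3 of 5 supporting-lineage genes (Fst, Wnt4, Wnt6, Irx3, Runx1) were above 0. The mean value of those 5 genes also had to exceed the mean of 5 surface epithelium genes (Upk3b, Krt19, Krt7, Upk1b, Tm4sf5) and of 5 interstitial genes (Col1a1, Col1a2, Acta2, Mfap4, Tcf21). The rule took 685 of 4787 cells at E14.5, or 14.3% (exact binomial 95% interval 13.3 to 15.3), out of 19387 cells in the study. The study sampled gonads labelled XX from C57BL/6 mouse embryos on each of 4 embryonic days (E11.5 up to E14.5) with the 10x Chromium 3′ platform, and the labels name no treatment and no altered allele. Each stage was 1 library, the number of embryos in it is not given in the sources used here, and stage and library cannot be told apart. No test was therefore made, and every interval below is an exact 95% interval for counting error only.

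Pre-granulosa cells are the supporting cells of the embryonic ovary. They enclose the germ cells and later become the granulosa cells of the follicles. Ovarian fate in this lineage is known to depend on WNT signalling, in which the secreted protein RSPO1 and the ligand WNT4 stabilise beta-catenin. LGR5 is a receptor for R-spondins, and in the embryonic mouse ovary its RNA is known from the surface epithelium and from cells just beneath it. FOXL2 is the transcription factor most used to mark pre-granulosa cells.

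The values that chose the cells are a description and no result. Exactly 3 of the 5 supporting genes were above 0 in 194 of the 685 cells, 4 in 244 and all 5 in 247. Just outside the threshold, 83 cells met every other part of the rule with 2 supporting genes. Of those 83 cells 31.3% carried Lgr5, against 37.1%, 40.6% and 51.4% of the cells with 3, 4 and 5 supporting genes. A further 191 cells had at least 3 supporting genes but a mean of the surface epithelium genes that was as high or higher, and 110 of these (57.6%) carried Lgr5. The margin of the supporting mean over the higher of the other means ran from 0.007 to 2.01 natural log units with a median of 0.916, and 28 cells lay under 0.1. In the libraries of E11.5 to E13.5 the same rule took 2164, 2216 and 1793 cells. The chosen cells were shallower at each later stage, with medians of 13935.5, 11802, 10762 and 9674 unique molecular identifiers (UMIs) per cell from E11.5 to E14.5. The E14.5 cells with 2, 3, 4 and 5 supporting genes had medians of 8819, 8982.5, 9215 and 12008 UMIs. Among these groups those with a higher Lgr5 share were thus also deeper. This did not hold for the 191 cells, with a higher share at a median of 10633 UMIs. Nor did it hold for 64 cells that met the rest of the rule with 1 supporting gene, with 3.1% at 20533 UMIs.

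The label was checked against marker genes. Fst, which encodes the activin antagonist follistatin, was found in 73.1% of the E14.5 cells and Irx3, a homeobox gene, in 88.2%, but both belong to the rule. Of the markers outside the rule, Aldh1a1, a retinaldehyde dehydrogenase, was found in 69.9% of the cells, Lgr5 in 43.5% and Ly6d, a surface protein gene, in 21.2%. Foxl2 was nearly absent, with 2 UMIs in 685 cells, a level of 0.244 CPM (UMIs per 1000000 UMIs summed over the cells). At E11.5, E12.5 and E13.5 it had 0.123, 0.137 and 0.269 CPM, so Foxl2 did not mark these cells in this table. Nr5a1 (54.4 CPM), Wt1 (371 CPM) and Gata4 (107 CPM), transcription factors of the gonadal somatic lineage, were present. Of 13 testis supporting (Sertoli) genes in the table, Sox10 had 0 UMIs, Amh 0.976 CPM and Sox9 9.63 CPM. Mro, of the same list, had 30.1 CPM against 1.78 CPM in surface epithelium. Of 2 tested genes of this list, 1 was called higher than in surface epithelium by the rule of size given below, beside 5.06% of all genes. Against interstitium 2 of 2 were called higher, beside 9.45% of all genes.

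RNA of other cell types was present in the chosen cells at E14.5. Stra8, a meiosis gene of germ cells, had 15.4 CPM in them, 10.7 CPM in surface epithelium and 9.37 CPM in interstitium. All 7 erythroid markers were detected, and their summed level of 13108 CPM in pre-granulosa cells stood beside 6323 CPM in surface epithelium and 7817 CPM in interstitium. The medians per cell were closer, at 1142, 1092 and 1072 CPM. All 7 endothelial markers summed to 118 CPM and all 7 immune markers to 36.5 CPM. The part of these RNAs in the results below was not tested, and counts are given again without the 25 E14.5 cells that had over 1% globin UMIs or at least 2 immune markers.

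The E14.5 library stood apart in the RNA of 4 Y-linked genes (Ddx3y, Eif2s3y, Kdm5d, Uty). They had 0 UMIs in every cell of the other 3 libraries, although all libraries are labelled XX. At E14.5 they were found in 935 cells, among them 172 of the 685 pre-granulosa cells (25.1%, 21.9 to 28.5), with at most 7 UMIs in a cell. Xist, the RNA of the inactive X chromosome, was found in all 685 cells and had 3233 CPM in the cells with a Y-linked UMI and 3061 CPM in the others. Y-linked UMIs were found in 20.2% of surface epithelium, 21.5% of interstitial and 17.9% of germ cells of the same library. The counts of called genes, the Lgr5 share and the levels of the main named genes are given with and without the 172 cells. The counts by gene list and the cell cycle shares are given only with them. In the E12.5 library 109 of 2216 cells chosen by the rule had no Xist UMI. Across the 4 libraries 175 barcodes occurred more than once, and 8 of the 685 cells had a barcode that another library also held.

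Lgr5 RNA was more frequent at each later stage. The share of pre-granulosa cells with at least 1 Lgr5 UMI was 7.99% (6.89 to 9.22) in the first library and 19.6% (18.0 to 21.3) a day later. It was 28.1% (26.0 to 30.3) at E13.5 and reached 43.5% (39.8 to 47.3) in the E14.5 cells. No interval overlapped that of the stage before. The E14.5 cells were the shallowest, and with every cell thinned to 5000 UMIs the shares were 3.19%, 8.98%, 14.4% and 23.6%. The summed level of Lgr5 was 6.81, 21.9, 37.9 and 62.4 CPM. The E14.5 level was called higher than that of E11.5 and E12.5 by the rule of size given below, and was 1.65 times that of E13.5, under the ratio of 2. Without cells with a Y-linked UMI the E14.5 share was 45.2%.

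At E14.5 the surface epithelium held Lgr5 at nearly the same level. Of its 494 cells, chosen by the mirrored rule on the epithelial genes, 44.9% (40.5 to 49.4) carried an Lgr5 UMI, at 65.2 CPM and a median depth of 10102 UMIs. The log2 ratio of pre-granulosa cells over surface epithelium was -0.06 (-0.26 to 0.13). The epithelial share had also risen with stage, from 3.73% at E11.5 to 11.9% at E12.5 and 21.3% at E13.5. The share was lower in interstitium and germ cells. Lgr5 was found in 2.74% of 548 interstitial cells (1.54 to 4.47, median depth 10288 UMIs) and in 3.21% of 2429 germ cells (2.55 to 3.99, median depth 15754 UMIs). It was found in 21.7% of 92 cells with at least 3 endothelial markers, a class planned as background. A stricter class, set after the data were seen, needed at least 4 such markers and fewer than 2 supporting genes. Lgr5 was found in 0 of its 32 cells, a count that leaves room for up to 9.38%. The limit on supporting genes could itself lower that share. Lgr5 was found in 27.4% of 2013 cells with at least 3 erythroid markers. That class, also planned as background, was not read so. Its median erythroid level per cell, 1170 CPM, was close to the 1142 CPM of pre-granulosa cells. The immune class, planned as background as well, is left out here.

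**Figure D1:**
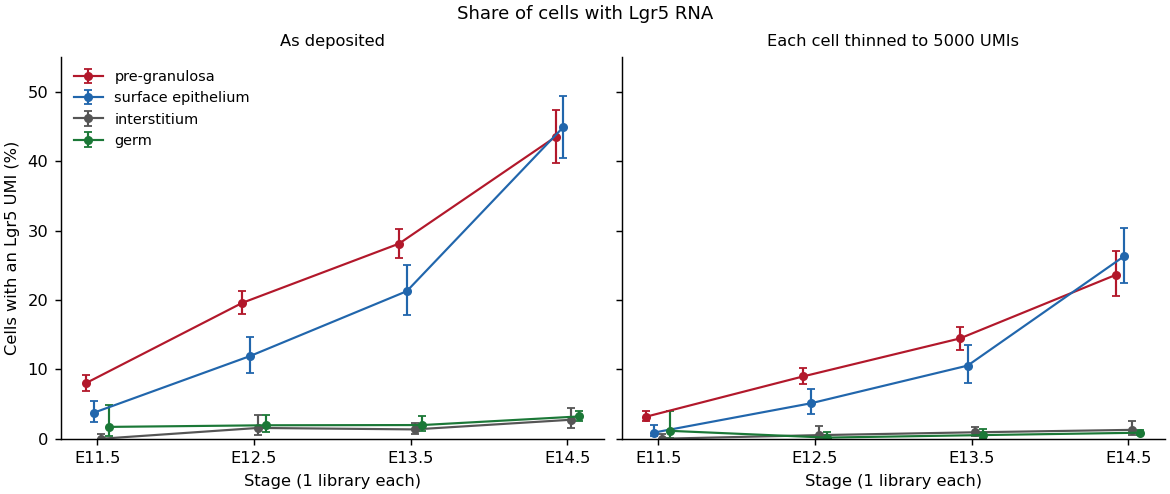
Share of cells with at least 1 Lgr5 UMI (percent, y axis) at each stage (x axis) in pre-granulosa cells, surface epithelium, interstitium and germ cells, as deposited on the left and with each cell thinned to 5000 UMIs on the right. Points are shares of 1 library and bars are exact 95% binomial intervals. As deposited, the pre-granulosa share went from 7.99% to 43.5% and that of surface epithelium from 3.73% to 44.9%. Interstitium and germ cells stayed under 5%.

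Within the E14.5 cells, 387 had no Lgr5 UMI, 179 had 1 and 119 had 2 or more, with a maximum of 9. If every cell had held Lgr5 at the same share of its RNA, 50.5% of cells would have had at least 1 UMI and 17.4% at least 2, against 43.5% and 17.4% measured. So a cell without an Lgr5 UMI has not been shown to lack the RNA. The 298 cells with Lgr5 were deeper, with a median of 10409.5 UMIs against 9337 in those without.

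Few genes passed a difference of 2 times between the cells with and without Lgr5. A gene was called different when it had at least 50 UMIs in both groups together, at least 20 CPM in the higher group, a ratio of at least 2 and Poisson intervals that did not overlap, which is a rule of size and not a test. It called 11 of 5943 genes (0.185%), 4 of them higher with Lgr5 (0.0673%) and 7 lower (0.118%). Without cells that carried a Y-linked UMI it called 15 genes, 6 of them the same, and without cells rich in globin or immune RNA 8 genes, 6 of them the same. Depth differed between the groups, and of the 11 calls 6 were kept with every cell thinned to 5000 UMIs (30 calls in all) and 2 in cells of middle depth (20 calls in all). Of the 11 genes only Hba-x had at least 20 CPM in both groups. The others met that minimum only through the group where they were higher. Among the genes of 31 lists, those called included Lyz2 and Pax8, and the median log2 ratio of all genes was -0.03.

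**Figure D2:**
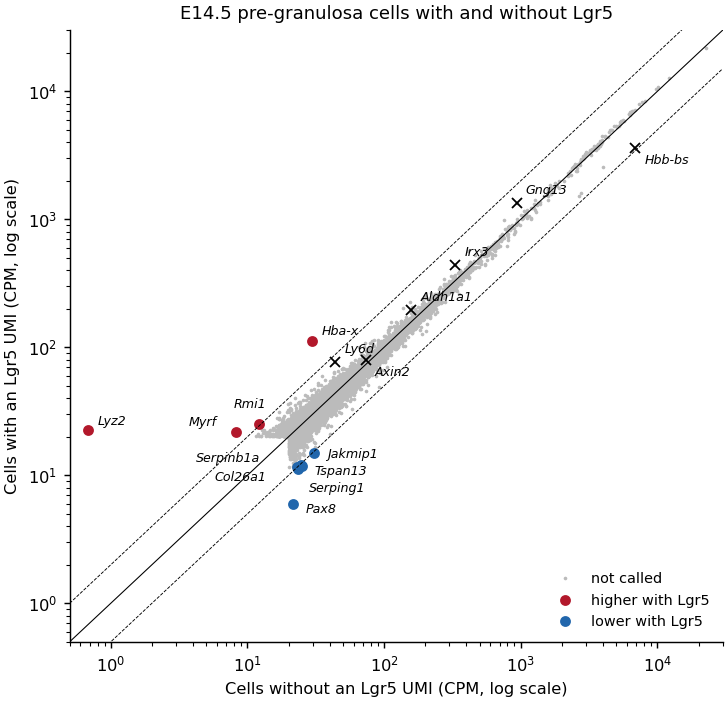
Summed level of each gene that met the minimums in E14.5 pre-granulosa cells without an Lgr5 UMI (x axis, CPM, log scale) and with one (y axis, CPM, log scale). Coloured points are called genes, crosses are genes discussed in the text, the solid line is equality and the dashed lines a ratio of 2; nearly all of the 5943 genes lie between the dashed lines.

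Pax8 had the lowest ratio of the cells with Lgr5 over those without. This paired-box gene, a marker of the rete and mesonephric tubules, had 6.02 CPM (3.82 to 9.03) in the cells with Lgr5 and 21.7 CPM (17.5 to 26.5) in those without, a log2 ratio of -1.85 (-2.57 to -1.18). Without cells with a Y-linked UMI the log2 ratio was -1.94, and without cells rich in globin or immune RNA -1.84. By the number of Lgr5 UMIs it was 21.7 CPM with none, 8.61 CPM with 1 and 2.48 CPM with 2 or more. The other rete and mesonephric markers were low, with Krt23 and Lhx1 at 0 UMIs, while Ncam1 had 22.2 CPM with Lgr5 and 24.4 CPM without.

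Further genes lower with Lgr5 were near the ratio of 2. The 3 of them that were compared by Pax8 were all higher in the cells with Pax8 than in those without. Jakmip1, which encodes a microtubule-associated protein, had 14.9 CPM with Lgr5 and 30.8 CPM without, and it had 95.4 CPM in cells with Pax8 and 14.1 CPM in cells without. Tspan13, a tetraspanin gene, had 11.8 and 24.9 CPM by Lgr5, and 76.3 and 11.3 CPM by Pax8. Serping1, the C1 inhibitor gene, had 11.3 and 23.3 CPM by Lgr5, and 38.2 and 15.02 CPM by Pax8. Col26a1, a collagen gene, had 12.04 and 24.66 CPM by Lgr5. Serpinb1a, a protease inhibitor gene, had 11.52 and 23.06 CPM by Lgr5. Col26a1 and Serpinb1a were not compared by Pax8. The summed erythroid markers stood at 9358 CPM with Lgr5 and 16379 CPM without, while the medians per cell were 1128 and 1154 CPM.

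Of the 4 genes higher with Lgr5, 2 rested on single cells. One cell gave 77 of the 86 Lyz2 UMIs, a lysozyme gene of myeloid cells, and one gave 347 of the 431 Hba-x UMIs, an embryonic globin gene. The summed immune markers had 59.7 CPM with Lgr5 and 16.2 CPM without. Myrf, a membrane-bound transcription factor gene, had 21.99 CPM with Lgr5 (17.5 to 27.2) and 8.22 CPM without, in 62 and 32 cells. Rmi1, a gene of DNA repair, had 25.1 and 12.1 CPM.

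The earlier libraries took no part in naming these genes. Their cells were split by Lgr5 in the same way, a comparison added after the E14.5 values had been seen. Pax8 had 5.05 CPM with Lgr5 and 12.95 CPM without at E12.5, and 7.40 and 19.0 CPM at E13.5. At E11.5 it had 16.1 and 18.3 CPM, and the interval of the log2 ratio (-0.67 to 0.26) included 0. Jakmip1 was lower with Lgr5 at all 4 stages, with log2 ratios of -1.12, -1.46, -1.44 and -1.05. Tspan13 had ratios of 0.10, -1.27, -0.69 and -1.08 on the log2 scale from E11.5 to E14.5. Serpinb1a had log2 ratios of 0.60 (-0.10 to 1.23), -0.04 (-0.79 to 0.65) and -1.25 (-1.88 to -0.66) at the 3 earlier stages, so it was lower with Lgr5 at E13.5 as well. Myrf had a log2 ratio of 0.40 (0.12 to 0.68) at E13.5, while its intervals at E11.5 (-0.17 to 0.74) and E12.5 (-0.0047 to 0.58) included 0. Rmi1 had log2 ratios of 0.34 (-0.10 to 0.75), 0.26 (-0.10 to 0.60) and -0.09 (-0.46 to 0.28) at the 3 earlier stages. Serping1 had -0.11 (-0.46 to 0.22), -0.29 (-0.57 to -0.01) and -0.49 (-0.79 to -0.20) there. Col26a1 had -0.26 (-0.82 to 0.26), -0.47 (-0.86 to -0.10) and -0.56 (-0.87 to -0.27). Serping1 and Col26a1 thus stayed under a ratio of 2 before E14.5.

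The same relation can be read from the side of Pax8. At E14.5, 67 pre-granulosa cells (9.78%) carried a Pax8 UMI, and 14 of them (20.9%, 11.9 to 32.6) carried Lgr5, against 46.0% (41.97 to 49.98) of the 618 cells without Pax8. The cells with Pax8 were deeper, at a median of 11967 UMIs against 9410.5. The shares with and without Pax8 were 8.77% and 20.8% at E12.5 and 14.7% and 29.97% at E13.5. At E11.5 they were 6.16% and 8.36%, with intervals that overlapped. The Pax8 cells also had less Gng13, a G protein subunit gene shared with the surface epithelium (362 against 1222 CPM), and less Krt18, a keratin gene (59.4 against 136 CPM). They had more Ncam1, an adhesion gene (101 against 13.4 CPM), and Fst at 237 against 229 CPM. Without the 67 cells the rule of size called 6 genes between cells with and without Lgr5, 5 of them the same as before. The lower calls went from 7 to 2, with Pax8 lost by construction. The further lower genes named above had stood near the ratio of 2, so this fall is no test of a link to Pax8.

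None of 6 tested genes of the surface epithelium list was called between cells with and without Lgr5, beside 0.185% of all genes. Their median log2 ratio was 0.58, where all tested genes had -0.03. Of the 6 genes 4 were used by the rule, with a median of 0.68, so the list median is a description. Gng13 had 1337 CPM with Lgr5 and 936 CPM without, a log2 ratio of 0.51 (0.45 to 0.57). Krt19 had 36.1 and 19.9 CPM and Krt7 59.7 and 34.9 CPM, both keratin genes that the rule used. Ly6d, which was found in 2.63% of surface epithelial cells and is no gene of that list, had 76.7 CPM with Lgr5 (68.2 to 86.0) and 43.8 CPM without (37.9 to 50.5), and was found in 29.19% and 14.99% of the cells. Bmp2, a BMP ligand gene, had 109 and 71.9 CPM, and its log2 ratios of 0.40, 0.48, 0.50 and 0.59 from E11.5 to E14.5 all had intervals above 0.

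WNT feedback genes, which are switched on by beta-catenin, did not differ by the rule between cells with and without Lgr5. Axin2 had 79.6 CPM with Lgr5 (70.9 to 89.0) and 73.8 CPM without (65.9 to 82.2), a log2 ratio of 0.11 (-0.12 to 0.34). Sp5 had 87.7 and 84.5 CPM and Nkd1 112 and 124 CPM. From E11.5 to E14.5 the log2 ratios of Sp5 were -0.52 (-0.86 to -0.20), 0.24 (0.11 to 0.36), 0.15 (0.02 to 0.27) and 0.05 (-0.16 to 0.27), so its direction was not the same over the stages. Lgr4, which encodes a related R-spondin receptor, had 91.6 and 97.95 CPM at E14.5, and Rspo1, the gene of their R-spondin ligand, 136 and 121 CPM. The whole list of WNT feedback targets and inhibitors had 3 of 14 genes that met the minimums, and 0 were called, beside 0.185% of all genes. Their median log2 ratio was 0.05, where all tested genes had -0.03.

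Between stages the chosen cells changed most from E11.5. The same rule of size called 75 of 5901 genes between E14.5 and E13.5 (1.27%), 49 higher (0.83%) and 26 lower (0.441%). Against E12.5 it called 151 of 5895 (2.56%), with 116 higher (1.97%) and 35 lower (0.594%), and against E11.5 545 of 6038 (9.03%), with 342 higher (5.66%) and 203 lower (3.36%). The 3 comparisons share the E14.5 cells. Scaled by the median ratio over genes, which shifts all log2 ratios down by 0.12, 0.11 and 0.17, the split of higher against lower was 34 to 35, 83 to 43 and 220 to 298. Without cells with a Y-linked UMI or no Xist UMI the counts were 72, 147 and 522, and without cells rich in globin or immune RNA 64, 147 and 552.

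Markers of the cells outside the rule rose to E14.5. Ly6d had 0.368, 4.52, 14.4 and 59.1 CPM from E11.5 to E14.5, and its E14.5 level was 4.10 times that of E13.5 (log2 ratio 2.04, 1.83 to 2.24). It was 66.5 CPM without the cells with a Y-linked UMI. Aldh1a1 had 18.3, 31.9, 79.8 and 176 CPM (174 CPM without the Y-linked cells) and was called higher at E14.5 against each earlier stage. Gng13, of the surface epithelium list and not one of the markers, had 123, 433.5, 795 and 1123 CPM (1149 CPM without the Y-linked cells). It was called against E11.5 and E12.5. Irx3, a gene of the rule, had 64.5, 311, 407 and 381 CPM, while Fst, also of the rule, had 275, 279, 351 and 230 CPM.

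Further genes with the largest ratios included secreted proteins and enzymes. Svs5, a seminal vesicle protein gene, had 3 UMIs at E11.5 and levels of 0.092, 0.992, 5.93 and 32.1 CPM over the stages, with a log2 ratio of 8.45 (6.88 to 10.73) against E11.5. Hsd3b1, a steroid dehydrogenase gene, had 1.69, 5.20, 17.5 and 39.3 CPM, and 41.2 CPM at E14.5 without the cells with a Y-linked UMI. Gatm, which encodes the enzyme of the first step of creatine synthesis, had 11.2, 24.0, 86.5 and 209 CPM, and 197 CPM at E14.5 without those cells. Cst12, a cystatin family gene, had 13.7, 26.9, 54.0 and 167 CPM. All 4 were called higher at E14.5 against each of the 3 earlier stages.

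Another set had already reached its level a day earlier. Sorbs2, an adapter of the actin cytoskeleton, had 4.26, 42.8, 113 and 113 CPM, and its log2 ratio of E14.5 over E13.5 was -0.01 (-0.12 to 0.10). Adamts19, a metalloprotease gene, had 1.196, 28.9, 48.6 and 49.8 CPM. Pld5 had 0.5215, 10.3, 27.4 and 24.5 CPM. These 3 genes differed from E11.5 by the rule and not from E13.5.

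**Figure D3:**
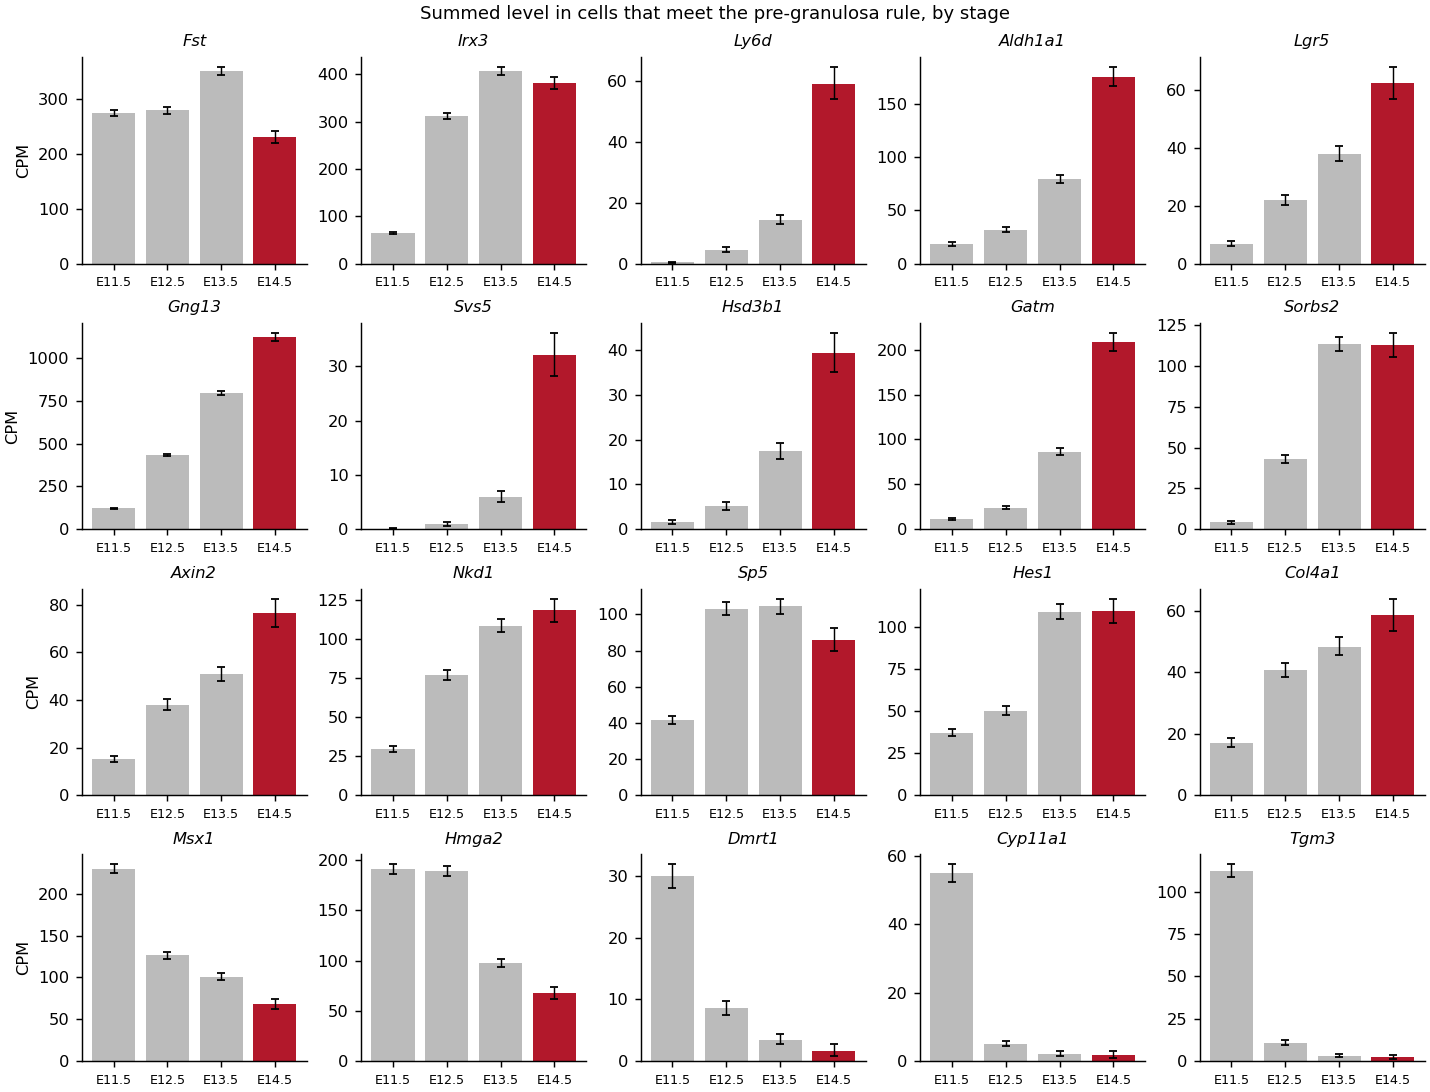
Summed level (CPM, y axes from 0, a scale for each gene) of 20 genes in the cells that met the pre-granulosa rule in each of the 4 libraries (x axes), with exact 95% Poisson intervals as bars. E14.5 is in red; Ly6d, Aldh1a1, Gng13, Svs5, Hsd3b1 and Gatm were highest at E14.5, while Msx1, Hmga2, Dmrt1, Cyp11a1 and Tgm3 were highest at E11.5.

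The WNT feedback genes that could be tested rose between E11.5 and E14.5. Of 14 genes on the list 3 met the minimums, and all 3 were called higher, beside 5.66% of all genes, with a median log2 ratio of 2.002 where all tested genes had -0.04. A gene under 20 CPM at E11.5 could meet the minimums only through its E14.5 level, which holds here for Axin2. Axin2, a scaffold of the beta-catenin destruction complex, had 15.1, 38.0, 50.9 and 76.5 CPM, and 73.2 CPM at E14.5 without the cells with a Y-linked UMI. Nkd1, an inhibitor of Dishevelled, had 29.5, 77.0, 109 and 118 CPM. Sp5, a transcription factor gene, had 41.4, 103, 104 and 86.0 CPM, so its highest levels were at E12.5 and E13.5, and its call against E11.5 was lost with median-ratio scaling (log2 ratio 0.88). None of the 3 tested WNT ligand and secretion genes, the 6 receptor and transducer genes or the 2 LGR and R-spondin genes was called, beside 9.03% of all genes. That last list does not hold Lgr5, which was called higher than at E11.5. Rspo1 had 113, 98.5, 154 and 128 CPM and Lgr4 114, 95.16, 117.6 and 95 CPM.

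The sequences upstream of these genes are shown for the genes whose 250 bases before the start hold the core motif of TCF/LEF factors, the partners of beta-catenin. The motif was searched as CTTTGA and, on the other strand, TCAAAG, and 13.83% of 32851 such windows in the RefSeq promoter table (GRCm38.p6) held a match. Of 8 genes searched (Fst, Irx3, Ly6d, Aldh1a1, Lgr5, Axin2, Nkd1, Sp5), 5 were in the table, and Fst, Ly6d and Lgr5 were not. The first Aldh1a1 start, on the plus strand with its window at chr19:20492333-20492582, had 3 matches, 147, 130 and 88 bases before the start, and the second start at chr19:20601718-20601967 had 0. Sp5, on the plus strand at chr2:70474673-70474922, had 2 matches, 204 and 104 bases before the start. Axin2, Nkd1 and Irx3 had 0 in this window. Capitals mark the matches. A match describes letters and is not a shown binding site.
Aldh1a1, first start: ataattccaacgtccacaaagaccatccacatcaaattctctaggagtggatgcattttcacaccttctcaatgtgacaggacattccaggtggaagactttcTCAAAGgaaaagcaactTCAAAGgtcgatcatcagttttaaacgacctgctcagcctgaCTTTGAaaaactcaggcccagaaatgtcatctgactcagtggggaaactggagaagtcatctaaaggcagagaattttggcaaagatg
Sp5: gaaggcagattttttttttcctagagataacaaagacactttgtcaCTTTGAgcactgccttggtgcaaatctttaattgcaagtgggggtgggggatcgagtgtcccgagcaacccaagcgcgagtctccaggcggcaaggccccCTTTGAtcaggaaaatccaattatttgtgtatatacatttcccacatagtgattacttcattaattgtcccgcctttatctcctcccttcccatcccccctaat

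Retinoic acid synthesis genes were among those called. Of 6 genes of this list that met the minimums, Aldh1a1 and Aldh1a2, both retinaldehyde dehydrogenases, were called higher than at E11.5 and 0 lower, beside 5.66% and 3.36% of all genes, with a list median log2 ratio of 0.34. Aldh1a1 was under 20 CPM at E11.5 and met the minimums only through E14.5. With median-ratio scaling Dhrs3, a retinaldehyde reductase gene, was called lower (log2 ratio -1.11). Aldh1a2 had 26.9, 34.4, 44.0 and 65.5 CPM. Cyp26b1, which breaks down retinoic acid, had 12.55, 2.12, 1.39 and 0.854 CPM and did not meet the minimums. The receptor gene Rara had 35.1 CPM at both E11.5 and E14.5.

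BMP and activin genes gave few calls. None of 10 tested BMP genes and none of 5 tested activin and TGF-beta genes was called between E11.5 and E14.5, beside 9.03% of all genes. Id1 and Id3, direct BMP targets, were lower at E14.5 than at E12.5, with 359 and 175 CPM for Id1 and 688 and 282 CPM for Id3 at E12.5 and E14.5. Inha, the inhibin alpha subunit gene, had 135, 68.1, 63.6 and 79.0 CPM. Amhr2, the receptor gene for anti-Mullerian hormone, had 363, 231, 234 and 314 CPM.

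Genes of contact with germ cells gave 1 call in 7 tested against E11.5, beside 9.03% of all genes. Gja1, the gap junction gene of connexin 43, had 127, 62.3, 57.7 and 56.5 CPM and was called lower than at E11.5. Kitl, whose product binds the KIT receptor of germ cells, had 234, 409, 275 and 342 CPM and was not called. Igf2, a growth factor gene, had 129, 379.5, 161 and 153 CPM and was called lower than at E12.5.

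In the NOTCH list, Hes1 and Hey1, both transcriptional repressors of the pathway, went opposite ways. Hes1 had 37.1, 50.1, 109 and 109 CPM and Hey1 51.2, 27.6, 24.7 and 20.1 CPM, and of 3 tested genes these 2 were called against E11.5, beside 9.03% of all genes.

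Several basement membrane and junction genes had higher levels at E14.5 than at E11.5. Of 15 genes 8 met the minimums, and of these 6 were called higher and 0 lower, beside 5.66% and 3.36% of all genes. Col4a1, Lamb1, Nid1 and Tjp1 were under 20 CPM at E11.5 and met the minimums only through E14.5, so the count is a description. They were the collagen IV genes Col4a1 (17.1 to 58.5 CPM) and Col4a2 (22.2 to 64.0 CPM), the laminin gene Lamb1 (17.1 to 36.8 CPM), the nidogen gene Nid1 (7.36 to 20.1 CPM), the tight junction gene Tjp1 (16.8 to 55.9 CPM) and the keratin gene Krt18 (60.1 to 127 CPM). With median-ratio scaling Lamb1, Nid1 and Krt18 were no longer called. None of the 8 was called between E13.5 and E14.5, beside 1.27% of all genes.

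In the surface epithelium list, the tested genes outside the rule were Gng13 and Aldh1a2, both called higher than at E11.5 and described elsewhere. The other 3 tested genes were rule genes, whose values are a description. Upk3b, a uroplakin gene, had 7.85, 16.5, 23.0 and 52.4 CPM, Krt7 17.15, 21.7, 23.1 and 46.5 CPM, and Krt19 2.70, 5.65, 11.9 and 27.4 CPM, so all 3 met the minimums only through the last stage. The rule let a cell in only while the mean of the epithelial genes stayed under that of the supporting genes.

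Some transcription factors of the early gonad were lower. Of 11 tested genes 3 were called lower than at E11.5 and 0 higher, beside 3.36% and 5.66% of all genes, with a median log2 ratio of -0.54. Msx1, a homeobox gene, had 230, 127, 101 and 67.8 CPM. Hmga2, a chromatin protein gene of growing embryonic cells, had 191, 189, 97.9 and 67.6 CPM. Nr0b1, which encodes the nuclear receptor DAX1, had 75.6, 25.5, 16.8 and 24.4 CPM. Gata4, Wt1, Nr5a1, Lhx9 and Emx2 were not called.

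**Figure D4:**
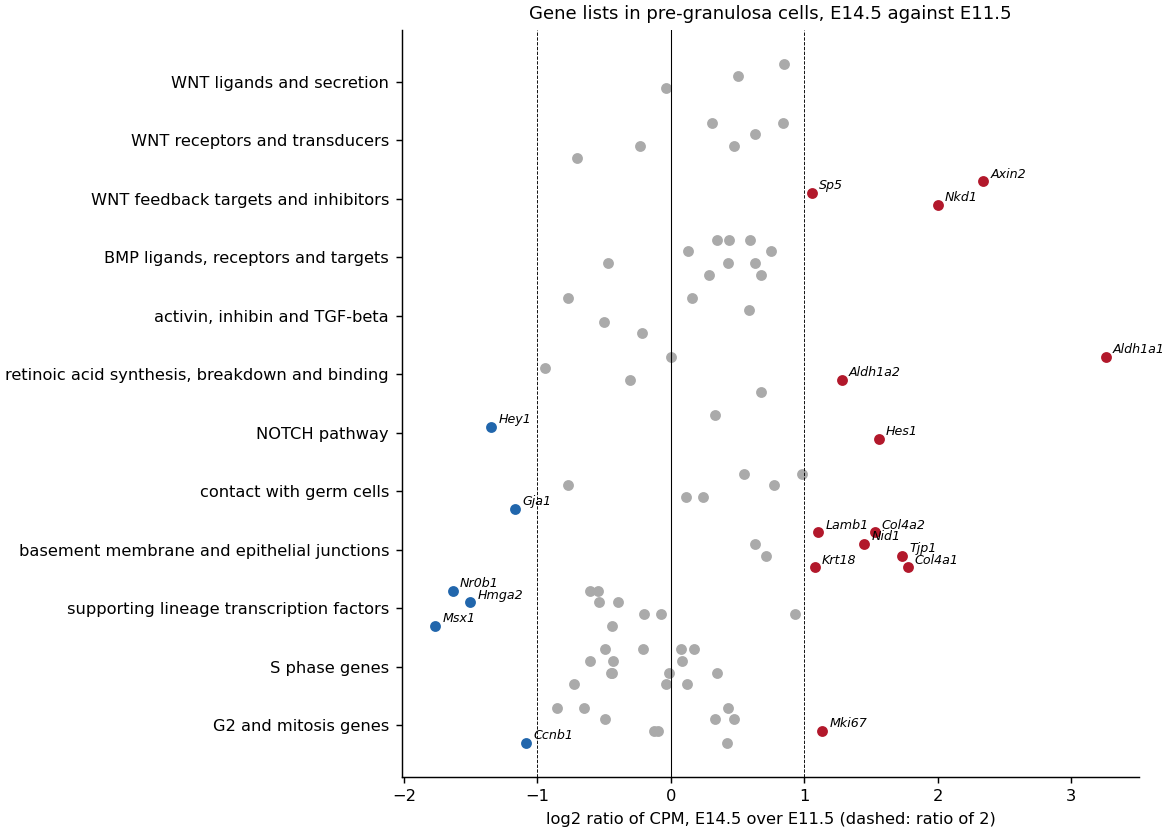
Log2 ratio of the summed level at E14.5 over E11.5 (x axis) for the genes of 12 lists (y axis) that met the minimums, 1 point a gene, with the vertical place within a row only for spacing. Red points were called higher and blue points lower, and dashed lines mark a ratio of 2; the 3 tested WNT feedback genes and 6 of 8 tested basement membrane and junction genes lie to the right of a ratio of 2.

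Of 4 tested genes of the testis supporting cell, 2 were called lower than at E11.5 and 1 higher, beside 3.36% and 5.66% of all genes. Dmrt1, a testis transcription factor gene, had 29.97, 8.52, 3.46 and 1.59 CPM and Cldn11, a tight junction gene of Sertoli cells, 28.1, 19.0, 17.4 and 11.1 CPM. Both were called lower and met the minimums only through E11.5. Mro was called higher, with 10.2, 10.2, 23.4 and 30.1 CPM, and met the minimums only through E14.5. Cyp11a1, the side-chain cleavage enzyme of steroid synthesis, had 54.9, 5.06, 2.11 and 1.71 CPM. Among the 10 genes with the largest falls from E11.5 was Pnliprp2, a lipase gene, with 2864 UMIs at E11.5 and 1 at E14.5 (log2 ratio -9.49, -14.80 to -7.01). Tgm3, an epithelial transglutaminase gene, had 113, 10.85, 3.19 and 2.07 CPM. Ppbp and Pf4, platelet genes, were also called lower. One cell at E11.5 held 1126 of the 1148 Ppbp UMIs and 3361 of the 3476 Pf4 UMIs.

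Among the 10 genes with the largest falls from E13.5 were 3 embryonic globin genes and 4 genes of rapidly induced transcription factors (Klf2, Klf4, Jund, Nr4a1). Embryonic Hbb-bh1 had 52.2 CPM at E13.5 and 4.88 CPM at E14.5, and adult Hbb-bs 296 and 5358 CPM. Jund had 195, 195, 494 and 161 CPM over the stages, Klf2 57.6, 25.9, 105 and 33.3 CPM and Klf4 66.5, 49.3, 93.2 and 36.5 CPM. These 3 genes, which are known to be induced by cell stress, were highest at E13.5. In the list of dissociation and stress genes 1 of 9 tested genes, Jund, was called against E13.5, beside 1.27% of all genes.

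Cell cycle genes were compared last. After thinning, 18.2% of the E14.5 pre-granulosa cells (15.4 to 21.3) held at least 2 of 15 G2 and mitosis genes, against 18.1%, 14.2% and 10.5% from E11.5 to E13.5. The share was 17.4% in cells with Lgr5 (13.3 to 22.2) and 18.9% in cells without (15.1 to 23.1), and these intervals overlapped. Of 11 tested G2 and mitosis genes Mki67 and Ccna2 were called higher than at E13.5, beside 0.83% of all genes. Mki67 had 7.23 CPM at E13.5 and 20.9 CPM at E14.5, so it met the minimums only through E14.5. Neither gene was called with median-ratio scaling. Of 14 tested S phase genes, Mcm3 and Rrm2 were called higher than at E13.5, also with that scaling, beside 0.83% of all genes. Mcm3, a helicase subunit gene, had 24.5 and 54.1 CPM. Against E11.5, of 11 tested G2 and mitosis genes Mki67 was called higher and Ccnb1 lower, beside 5.66% and 3.36% of all genes. With that scaling none was called higher and 2 lower. Cdkn1b, the gene of the cell cycle inhibitor p27, had 78.4, 170, 130 and 137 CPM and was not called. Ccnd2, a G1 cyclin gene, was called higher than at E11.5, with 209 and 432 CPM, though not with median-ratio scaling. None of 14 tested S phase genes was called against E11.5, beside 9.03% of all genes, and their median log2 ratio there was -0.12.

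Set beside the surface epithelium and the interstitium, which the same genes chose, the values are a description. The rule of size called 633 of 6142 genes against surface epithelium (10.3%), 311 higher (5.06%) and 322 lower (5.24%). Against interstitium it called 1187 of 6351 (18.7%), 600 higher (9.45%) and 587 lower (9.24%). Without cells with a Y-linked UMI 634 genes were called against the surface epithelium and 1216 against the interstitium. G2 and mitosis genes were seen in fewer of the pre-granulosa cells than of the others. After thinning 41.5% of surface epithelial cells (37.1 to 46.0) and 71.0% of interstitial cells (67.0 to 74.8) held 2 or more of them. Cdkn1b had 137 CPM in pre-granulosa cells, 18.8 CPM in surface epithelium and 30.2 CPM in interstitium. Hsd3b1 had 39.3, 1.42 and 2.86 CPM and Gatm 208.6, 11.01 and 98.5 CPM in the same order. Kitl had 342, 172.5 and 43.4 CPM. Lhx9 was lower in pre-granulosa cells than in surface epithelium (224 against 462 CPM), while Axin2 had 76.5 and 71.8 CPM in these classes and 28.9 CPM in interstitium.

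**Figure D5:**
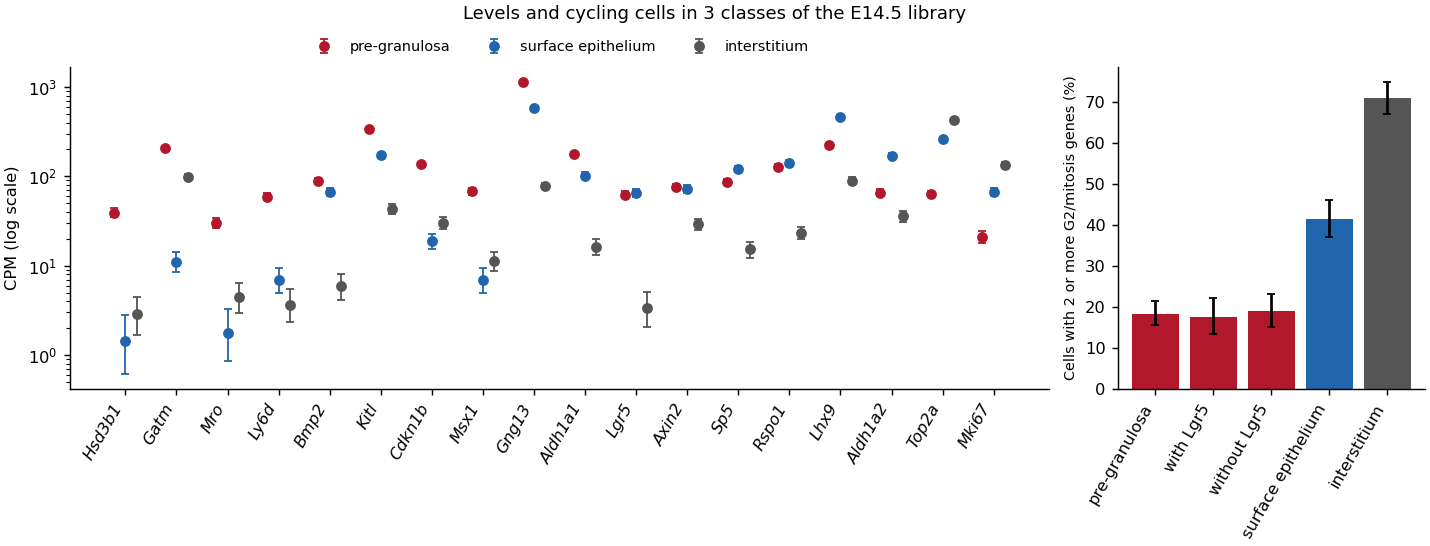
Left, summed level (y axis, CPM, log scale) of 18 genes (x axis) in pre-granulosa cells, surface epithelium and interstitium of the E14.5 library, with exact 95% Poisson intervals. Right, share of cells (percent, y axis) with at least 2 G2 and mitosis genes after thinning, with exact binomial intervals; the bars of all pre-granulosa cells, of those with Lgr5 and of those without stand at 18.2%, 17.4% and 18.9%, below 41.5% and 71.0% in the other classes.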

How the data were processed

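Single-cell libraries of 4 stages, 1 each, were deposited by the authors as 1 table of 19321 genes and 19387 cells. The submitters' processing notes name Cell Ranger 2.2.0 and mm10; cell calling and filters are not given in the sources used here. The deposited values are natural log values, ln(1 + UMIs / cell total × 10000), as read from the values themselves: 100% of 69792436 values above 0 were whole multiples of 1 UMI (relative tolerance 1e-06). UMI counts were recovered from them, where the plan had assumed counts. Every cell was kept; 0 of the chosen cells had over 20% mitochondrial UMIs. UMIs were summed over cells as CPM with Poisson intervals (SciPy 1.17.1), log2 ratios carry exact binomial intervals, and shares Clopper-Pearson ones. Thinning used 5000 UMIs a cell, and no cell was below this. Doublets were called with Scrublet in scanpy 1.11.5 (rate 0.06) and were kept, 7 of them among the 685 cells. The rule of size was run on simulated Poisson sums with some genes raised beyond the ratio of 2. Those sums held no spread between cells, so the run does not cover genes carried by few cells. Named genes are those of 31 lists (in sentences by list) and up to 10 with the largest ratio in each direction per comparison, leaving out mitochondrial genes and genes of the rule. The cells and lists were chosen with earlier results of these data known. Genes set side by side in other ways were chosen after their values were seen. The result of 1 gene is not reported here. Alternatives covered thresholds, scaling, depth, doublets and the rule's limits.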

Additional observations from a re-analysis of the deposited data

How the results depend on the processing

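No paired analysis was possible because each stage is 1 library and no replicate numbers are shared; leaving out a replicate was likewise not possible. In the order of cells with against without Lgr5, E14.5 against E13.5, E12.5 and E11.5, then against surface epithelium and interstitium, the rule of size called 11, 75, 151, 545, 633 and 1187 genes. A ratio of 1.5 gave 92, 426, 463, 1467, 1391 and 2147, and a ratio of 4 gave 1, 9, 26, 161, 136 and 472. No CPM minimum gave 47, 354, 706, 1769, 1291 and 2243, and a minimum of 50 CPM gave 1, 36, 61, 252, 280 and 584. Between cells with and without Lgr5, 18 genes were called without doublets, 39 with at least 2 Lgr5 UMIs against none, 20 in the cells of middle depth (2 of the 11 among them), 30 after thinning, and 6 without Pax8 cells. Against E13.5 a common minimum of 10000 UMIs gave 114. A rule with no germ gene left 437 cells. Thinned Lgr5 shares were 3.19%, 8.98%, 14.4% and 23.6% over the stages. Cells with at least 3 G2 and mitosis genes were 9.20%, 8.94%, 5.19% and 10.4%, and with 2 genes as deposited 43.2%, 30.1%, 24.5% and 34.6%. Of 706 values for 108 named-gene results, 589 lay within the 95% interval of the main log2 ratio. Another 113 lay outside it without a change of sign, and 4 changed sign on the log2 scale. These were Hba-x (-1.89 with at least 2 Lgr5 UMIs), Pax8 (0.038 without Pax8 cells, by construction), S100a8 against E12.5 (2.36 without globin-rich and immune cells) and Pf4 against E11.5 (0.25 with at least 4 supporting genes); the cause was not tested for the others. The settings without Pax8, Y-linked, no-Xist, globin-rich or immune cells were chosen after seeing the data. The genes called between cells with and without Lgr5 rest on few UMIs (Pax8 had 23 with and 95 without), so depth limits that comparison.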
